A study of Mus musculus with 9 samples.

Results

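The distal gut of mouse embryos lacking the endothelin receptor Ednrb was compared with that of wild type embryos by pooling both mutants of the study, a general mutant and one restricted to neural crest cells. All 9 arrays of the study entered the comparison, 3 wild type and 6 mutant, and each mutant genotype carried the same weight. The wild type arrays are named 1B, 1C and 1D. The 3 arrays of Ednrb null (29, 37 and 41) came from embryos homozygous for a lacZ allele of Ednrb. The 3 arrays of Ednrb NCC null (2, 5 and 6), titled Ednrb-FLEX, came from embryos labelled as mutant for Ednrb in NCC cells. The Cre line and promoter behind that restriction, the strain and sex of the embryos, and any pooling of embryos are not named in the labels. The terminal colon was dissected at embryonic day 14 per the sample labels (14.5 in the series text), and 150 ng of total RNA was labelled per array. The labels do not say whether the arrays of a group came from separate embryos, so p-values measure the spread between these samples only, part of which may be technical.

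Enteric neural crest cells enter the gut from its rostral end, migrate through the gut wall to the anus, and give rise to the neurons and glia of the enteric nervous system. They carry Ednrb, the receptor for endothelin 3, and Ret, the receptor tyrosine kinase for GDNF, and the surrounding mesenchyme supplies both ligands. Loss of either receptor leaves the distal colon without ganglia, as in Hirschsprung disease. Sox10, Foxd3 and Tfap2a are transcription factors of the crest lineage, and Phox2a and Hand2 act in its neuronal branch.

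A gene was called when its pooled difference from wild type had an adjusted p under 0.05 (limma, Benjamini-Hochberg over 18193 genes), and it was counted as not overlapping when all 6 mutant values lay on 1 side of the 3 wild type values. Of the 18193 genes, 855 were called (4.70%) and 1486 did not overlap (8.17%). Without overlap 1017 genes were higher (5.59%) and 469 lower (2.58%). Both held for 668 genes (3.67%), of which 424 were higher in the mutants (2.33%) and 244 lower (1.34%). The falls were the larger changes. The median difference was 0.46 on the log2 scale among the 424 higher genes and -0.58 among the 244 lower ones, beside 0.03 over all genes, and a change of at least 2-fold was seen for 24 higher and 42 lower genes. Left out of the 668 were 187 called genes with overlapping values, 115 of them because of a single mutant array, and 818 genes without overlap that were not called. Just inside the line lay the serine protease gene Htra3, whose highest mutant value was 0.01 below the lowest wild type value. Just outside it lay Mdfi, an inhibitor of myogenic factors, with 1 of 6 mutant values inside the wild type range. The other probe set of Mdfi differed by -0.00.

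Among the runs with 1 array left out, the limma counts moved most without wild type 1B, with 167 genes called higher and 197 lower in place of 527 and 328. In the same runs the counts without overlap moved most without the other wild type arrays, to 2611 higher genes without 1D and 1039 lower genes without 1C. Of the 668 genes, 294 kept their call without wild type 1B (144 higher, 150 lower), and 274 kept it whichever array was left out (137 higher, 137 lower). Genes of the mesothelium, the surface lining of the gut, were lowest in wild type 1B, and their part in these counts was not tested. Its log2 intensity of the mesothelial gene Upk3b was 6.04, against 9.76 and 9.30 in 1C and 1D and 10.11 to 10.46 in the mutants.

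Crest genes held the largest share of calls of the 33 lists examined, 64.7% beside 4.70% of all genes. The lists were chosen with earlier results of these data known and this one includes the mutated gene, so its rank is not a test. The enteric neural crest list has 20 genes and 17 were measured, and 11 of these were called lower, Ednrb, Ret, Gfra1, Sox10, Sox8, Foxd3, Tfap2a, Insm1, Ngfr, L1cam and Itga4. None was called higher by limma (0 at an unadjusted p under 0.05, against 14 lower). In 10 of the 11, all but Ednrb, the mutant and wild type values did not overlap. The median of the list was -0.90, beside 0.03 over all genes, and it was -0.57 with the mean of all probe sets and -0.50 with every probe set. By mutant it was -0.99 in Ednrb null, beside -0.78 in Ednrb NCC null. Without single arrays between 8 and 12 members were called lower. With the Actb 3' to 5' difference, a measure of RNA integrity, as a covariate there were 7. In bulk tissue, fewer crest cells and less RNA per crest cell cannot be told apart.

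Promoters were looked up in the RefSeq table of the GRCm38.p6 assembly, with 250 bases before and 50 after a gene's start, for the 16 genes of the neural lists that were called lower without overlap. Windows were found for 11 of them, 17 windows in all, so that a gene can count more than once. Of the 4 windows shown, 3 belong to crest genes among these, and Hoxa5, described further on, was added to them. These genes fell together in both mutants. The 4 windows were picked by hand and each holds a marked E-box, so they do not represent the 17. Capitals mark the E-box CAGCTG in Itga4 and Hoxa5 and the E-box CACGTG in Sox8 and Foxd3, 1 match in each window. Both motifs were picked after the sequences had been read, and both read the same on either strand. Their shares, given below, therefore do not test for an excess. By gene, CAGCTG was in 5 of the 11 (45.5%), beside 18.8% of all genes with a window.
Itga4 promoter (chr2:79255176-79255475, plus strand): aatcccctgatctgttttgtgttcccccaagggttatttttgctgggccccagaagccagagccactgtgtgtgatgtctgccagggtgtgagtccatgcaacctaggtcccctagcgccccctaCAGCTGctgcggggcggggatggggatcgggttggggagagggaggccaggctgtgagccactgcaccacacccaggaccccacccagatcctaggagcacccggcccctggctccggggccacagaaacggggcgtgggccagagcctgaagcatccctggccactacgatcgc
Sox8 promoter (chr17:25570637-25570936, minus strand): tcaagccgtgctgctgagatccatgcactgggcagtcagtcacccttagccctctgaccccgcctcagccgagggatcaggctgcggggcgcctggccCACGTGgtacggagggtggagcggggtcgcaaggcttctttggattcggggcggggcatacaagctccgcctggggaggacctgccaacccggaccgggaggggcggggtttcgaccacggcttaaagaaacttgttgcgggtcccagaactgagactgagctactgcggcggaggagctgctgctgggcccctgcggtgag
Foxd3 promoter (chr4:99656049-99656348, plus strand): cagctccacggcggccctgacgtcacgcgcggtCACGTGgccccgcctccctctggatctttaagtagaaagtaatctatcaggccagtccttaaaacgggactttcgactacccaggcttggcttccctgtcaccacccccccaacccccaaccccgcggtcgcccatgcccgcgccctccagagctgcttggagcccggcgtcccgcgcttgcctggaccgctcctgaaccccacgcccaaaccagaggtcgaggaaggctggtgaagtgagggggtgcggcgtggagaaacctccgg
Hoxa5 promoter (chr6:52204538-52204837, minus strand): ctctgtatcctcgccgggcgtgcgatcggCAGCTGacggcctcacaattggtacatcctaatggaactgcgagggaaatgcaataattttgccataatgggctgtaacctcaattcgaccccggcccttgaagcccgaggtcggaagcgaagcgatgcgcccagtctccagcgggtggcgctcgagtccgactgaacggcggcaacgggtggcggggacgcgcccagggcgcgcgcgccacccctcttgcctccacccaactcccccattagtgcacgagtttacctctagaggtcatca
CAGCTG was found in 6 of the 17 windows (35.3%) and in 16.4% of 18109 windows of all measured genes. CACGTG was in 2 of the 17 (11.8%), beside 8.72% of all windows, and ACAAAG, the core of the SOX motif, searched on both strands, in 1 (5.88%), beside 15.9%. Both E-boxes are forms of CANNTG, and ACAAAG is not. A match describes letters, not binding.

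Ret and its co-receptor Gfra1 were lower, and the ligands of the GDNF family were not called. Ret had log2 intensities of 8.91, 9.94 and 9.91 in wild type and of 5.81 to 7.14 in the mutants, with a median of 6.08. Every mutant array was far below every wild type array, with 1.77 between the closest values. Ret was 9.64-fold lower in the pooled mutants (difference -3.27, SE 0.31, adjusted p = 0.000229), by 3.23 in Ednrb null, beside 3.31 in Ednrb NCC null. A dimmer probe set of Ret differed by only -0.76, also without overlap. Gfra1, the co-receptor that binds GDNF for Ret, was at 10.91, 11.13 and 11.05 in wild type and at 10.39 to 10.79 in the mutants, with a median of 10.60. That made a small but separate step of -0.43 (SE 0.09, adjusted p = 0.0226), which was not called without wild type 1C (adjusted p = 0.0728), wild type 1D (0.0569) or Ednrb NCC null 6 (0.0523), nor with the Actb covariate (0.141) or the mean of all probe sets (0.0524). The ligands Gdnf, Nrtn, Artn and Pspn differed by 0.23, -0.10, 0.56 and 0.15, and none was called. Artn lay above wild type in all 6 mutant arrays by a margin of 0.01 (adjusted p = 0.0856). Among the other co-receptors Gfra2 and Gfra3 differed by -0.02 and -0.20. Gfra4 rose by 0.28 (adjusted p = 0.0379), a call that was lost in 12 of 19 alternatives.

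The endothelin family outside the mutated gene was not called. Ednrb was at 11.08, 10.95 and 11.05 in wild type, at 9.23, 9.40 and 8.77 in Ednrb null, and at 11.15, 11.32 and 11.04 in Ednrb NCC null. The 3 Ednrb null arrays were low and the 3 Ednrb NCC null arrays stayed at the wild type level, so the groups overlapped although the pooled difference of -0.87 was called (SE 0.12, adjusted p = 0.00280). The mutants differed from each other by -2.04 (adjusted p = 4.49e-05), and with the 6 mutant arrays treated as 1 group the pooled adjusted p was 0.507. Where the probes lie relative to the mutated part of the gene is unknown here, and hindgut holds Ednrb-expressing cells outside the crest, so these levels check the Ednrb NCC null label in neither direction. Edn3, the ligand, was at 7.38, 8.28 and 7.90 in wild type and at 8.23 to 8.59 in the mutants, with 1 of 6 mutant values inside the wild type range (difference 0.53, adjusted p = 0.0849). Its other probe sets differed by 0.56 and 0.38 without overlap and by 0.32 with overlap, and without wild type 1C 1 member of the family was called higher. Edn1, Edn2 and the processing enzymes Ece1, Ece2 and Ecel1 differed by 0.05, 0.15, -0.05, -0.02 and -0.26, with adjusted p of 0.320 to 0.920.

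Among the transcription factors of the crest, Sox10 was at 8.68, 8.97 and 9.72 in wild type and at 6.92 to 7.60 in the mutants, with a median of 7.40. The closest values of the groups were 1.08 apart, and the fold was 3.48 (difference -1.80, SE 0.19, adjusted p = 0.000450). Its 2 other probe sets differed by -0.60 and -0.51. Insm1, a zinc finger factor of neuronal and endocrine precursors, was at 6.58, 6.84 and 7.62 in wild type and at 4.76 to 5.79 in the mutants (3.30-fold lower, adjusted p = 0.000815). Sox8, a relative of Sox10, was at 5.40, 6.36 and 6.71 against 4.69 to 5.17, separate from wild type although 1B was the lowest wild type array (difference -1.19, adjusted p = 0.0143). Foxd3 and Tfap2a fell by 0.90 (adjusted p = 0.0226) and 0.93 (adjusted p = 0.0419). Tfap2a lost its call in 8 of 18 alternatives, among them those without wild type 1B (adjusted p = 0.214) and 1D (0.0974), and Foxd3 in 5. Further probe sets of Tfap2a differed by -0.87 without overlap and by -0.02 with overlap. The other factors of the list were not called. Phox2a differed by -0.03, Hand2 by 0.08, Tlx2 by 0.04, Tfap2b by -0.28, Tbx3 by -0.58 (adjusted p = 0.106) and Zeb2 by -0.43 (adjusted p = 0.0919). Zeb2 was split by 1 mutant array, and its other probe sets differed by -0.88, -0.59, -0.50 and -0.44. Phox2a and Tfap2b were close to the dim end of the arrays, and Tlx2 had almost the same value on every array.

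Surface molecules of crest cells fell as well. Itga4, the alpha subunit of an integrin that binds fibronectin and VCAM1, was at 9.47, 9.90 and 9.97 in wild type and at 7.76 to 8.39 in the mutants, a level below every wild type array. The drop of 1.74 (SE 0.12, 3.34-fold, adjusted p = 3.01e-05) was seen in both mutants, at -1.88 in Ednrb null, beside -1.60 in Ednrb NCC null. Its dimmer probe sets differed by -1.02, -0.45, -0.28 and -0.00. L1cam, an adhesion molecule of migrating crest cells and axons, was at 8.55, 8.28 and 8.71 against 7.04 to 7.83 (2.02-fold lower, adjusted p = 0.00381); a second probe set differed by -0.08. Ngfr, the low-affinity neurotrophin receptor, was 2.00-fold lower (adjusted p = 0.0110), a call lost in the 2-group fit (0.0576) and with the Actb covariate (0.0640).

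**Figure D1:**
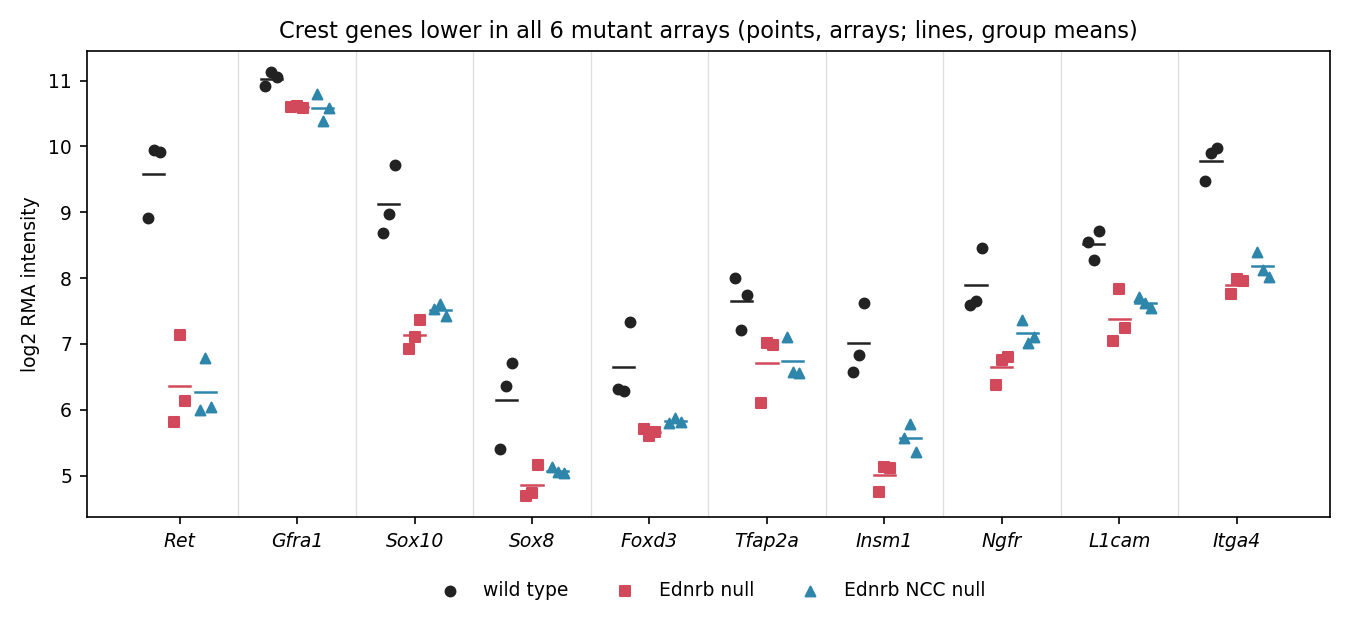
Log2 RMA intensity (vertical axis) of the 10 crest genes that were called lower without overlap, in 3 wild type (circles), 3 Ednrb null (squares) and 3 Ednrb NCC null (triangles) arrays, with a line at each group mean. For each gene every mutant point lies under the lowest wild type point, from a gap of 1.77 for Ret to 0.11 for Tfap2a.

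Of 16 measured genes of glia and Schwann cell precursors 3 were called lower (18.8%, beside 1.80% of all genes), with a list median of -0.07. They were Cdh19, Sox10 and Foxd3, the last 2 also on the crest list. Limma called 0 higher (1 at an unadjusted p under 0.05). Cdh19, a cadherin of the glial precursor lineage, was at 6.78, 7.47 and 7.78 in wild type and at 4.21 to 5.02 in the mutants, with a median of 4.78. Both mutants were near the dim end, under the 25th percentile of all values at 5.17, so the 6.15-fold drop (difference -2.62, SE 0.20, adjusted p = 6.07e-05) is a low estimate where background sets the mutant level. Glial genes outside the call included Erbb3, the neuregulin receptor, at -0.37 (adjusted p = 0.0630), Fabp7, a fatty acid binding protein, at 0.05, and S100b, a calcium binding protein, at 0.36.

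Neuronal genes changed in part. Of 23 pan-neuronal genes 4 were called lower by limma, Elavl4, Tubb3, Gap43 and Dpysl3 (17.4%, beside 1.80% of all genes), and 0 higher (0 at an unadjusted p under 0.05), with a median of -0.15. Elavl4, a neuronal RNA-binding protein, was at 7.34, 8.30 and 8.38 in wild type and at 6.35 to 6.59 in the mutants, with a median of 6.44. The 6 mutant arrays were tightly grouped and 2.91-fold lower (difference -1.54, SE 0.19, adjusted p = 0.00120). Further probe sets differed by -1.33 and -1.94, both without overlap. Tubb3, the neuronal tubulin, differed by -1.78 (adjusted p = 0.0349), but Ednrb null 37, at 6.80, was above wild type 1B, at 6.52, and the call was lost in 9 of 18 alternatives, among them those without wild type 1C (0.0883) and 1D (0.102). Gap43, of growing axons, overlapped in the same way (difference -0.88, adjusted p = 0.0189). Dpysl3, a cytoskeletal protein of growing axons, fell by 0.46 (adjusted p = 0.0404), a call lost in 9 of 19 alternatives. Its other probe sets differed by -0.97 and -0.82, both without overlap. Without wild type 1D or in the 2-group fit 1 gene of the list was called. General neuronal genes that were not called included Stmn2 at -0.12, Elavl3 at -0.23 and Prph, a peripheral intermediate filament, at 0.08.

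Of the synaptic genes, 1 of 19 was called (5.26%, near the 4.70% of all genes), Syt1, the calcium sensor of vesicle release, at -0.77 (adjusted p = 0.00869, no overlap). Of 18 genes of enteric transmitters and their enzymes 3 were called lower (16.7%, beside 1.80% of all genes). The neuropeptide gene Gal was at 7.05, 7.90 and 9.01 in wild type and at 5.97 to 6.76 in the mutants (3.19-fold lower, adjusted p = 0.0170). Cartpt, another neuropeptide precursor, was at 6.59, 7.41 and 7.07 against 5.64 to 6.26 (1.97-fold lower, adjusted p = 0.0188). Wild type arrays spread widely for both, and Cartpt lost its call without wild type 1C (adjusted p = 0.0519) or 1D (0.0530). Gal lost it with a trended, robust eBayes (0.0636). Vip, the vasoactive intestinal peptide, differed by -0.99 (adjusted p = 0.0226) with overlap. Nos1 and Chat, which make nitric oxide and acetylcholine, differed by -0.11 and -0.07.

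Of 12 measured markers of sympathetic and pelvic ganglia, which lie next to the terminal colon, 2 rose, Hand1 and Maob (16.7%, beside 2.90% of all genes), and 0 fell in limma (0 at an unadjusted p under 0.05), with a median of -0.07. Without wild type 1C 2 were called higher and 2 lower, and in the 2-group fit none was called. Hand1, a transcription factor of sympathetic neurons that is also made in gut mesenchyme, was at 7.94, 8.59 and 8.33 in wild type and at 8.74 to 9.33 in the mutants (1.65-fold higher, adjusted p = 0.00699). Its other probe set differed by 0.25, and the call was lost in the 2-group fit (0.0547) and with the Actb covariate (0.0516). Maob, a monoamine oxidase, was 0.02 above wild type at its lowest mutant value, and the rise sat in Ednrb NCC null, at 0.99 against 0.17 in Ednrb null (difference between the mutants adjusted p = 0.00161). The list's mean level was 7.23 to 7.71 in wild type and 7.36 to 7.65 in the mutants.

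**Figure D2:**
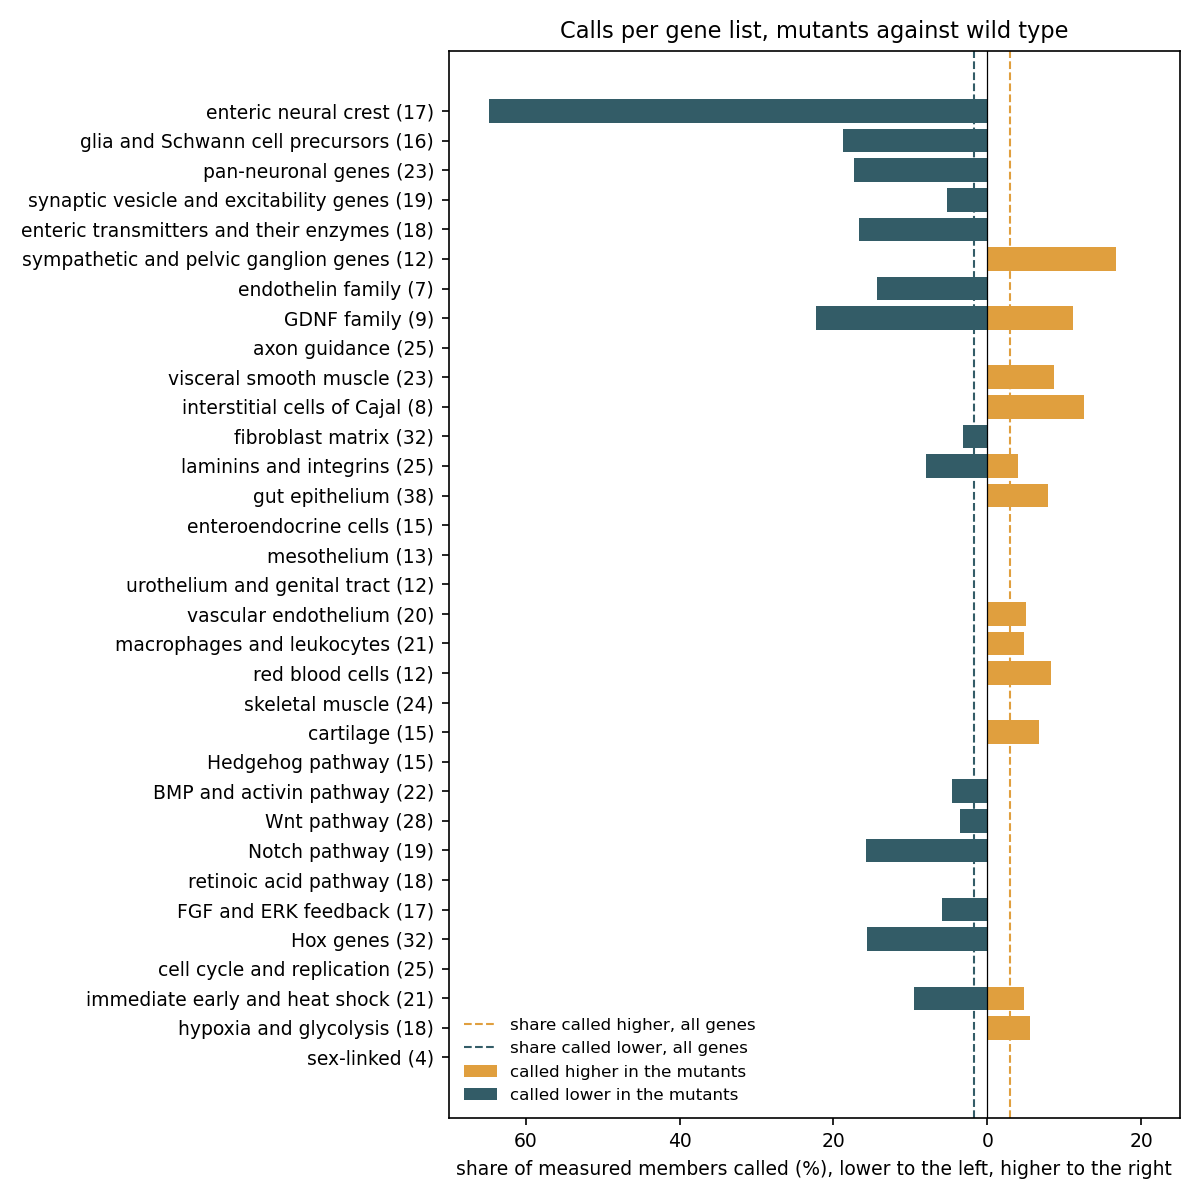
Share of the measured members of each gene list (percent, horizontal axis) that limma called lower (bars to the left) or higher (bars to the right) in the pooled mutants, with the number measured beside each list and dashed lines at the shares over all genes. The enteric neural crest list reaches 64.7%, and the lines stand at 1.80% lower and 2.90% higher.

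Hox genes are expressed along the body axis in the order of their paralog groups. Of 32 measured, 5 were called lower (15.6%, beside 1.80% of all genes), Hoxa3, Hoxa4, Hoxa5, Hoxb5 and Hoxd3. All 5 are among the 13 measured genes of paralog groups 1 to 5, whose median was -0.28 and whose other members, such as Hoxb1 at 0.04, Hoxb2 at -0.04 and Hoxc5 at -0.07, were not called. Of 10 genes of groups 6 to 9 and 9 of groups 10 to 13 limma called 0 (at an unadjusted p under 0.05, 1 and 3 were higher and 0 were lower), with medians of 0.00 and 0.17. Anterior Hox genes are used by vagal crest cells and by mesenchyme of more rostral gut, and the posterior groups mark hindgut mesenchyme. The difference between the paralog groups was not tested.

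Hoxa5 was at 9.28, 9.19 and 9.25 in wild type and at 8.23 to 8.63 in the mutants, with a median of 8.29. The wild type arrays were nearly equal and stood clear of all mutants (difference -0.85, SE 0.09, 1.81-fold lower, adjusted p = 0.000351). A second probe set of Hoxa5 differed by -0.39 with overlap. Hoxb5 was at 7.82, 8.45 and 8.10 against 7.21 to 7.56 (1.70-fold lower, adjusted p = 0.00600), by 0.75 in Ednrb null, beside 0.78 in Ednrb NCC null. Hoxd3 was at 6.49, 6.80 and 7.43 against 5.44 to 6.02 (2.33-fold lower, adjusted p = 0.00411). These 3 kept their call in every alternative run. Hoxa3, at -0.28, lost its call in 15 of 19 alternatives, and Hoxa4, at -0.88 with overlap, in 11 of 18; both are named although their values were seen first.

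**Figure D3:**
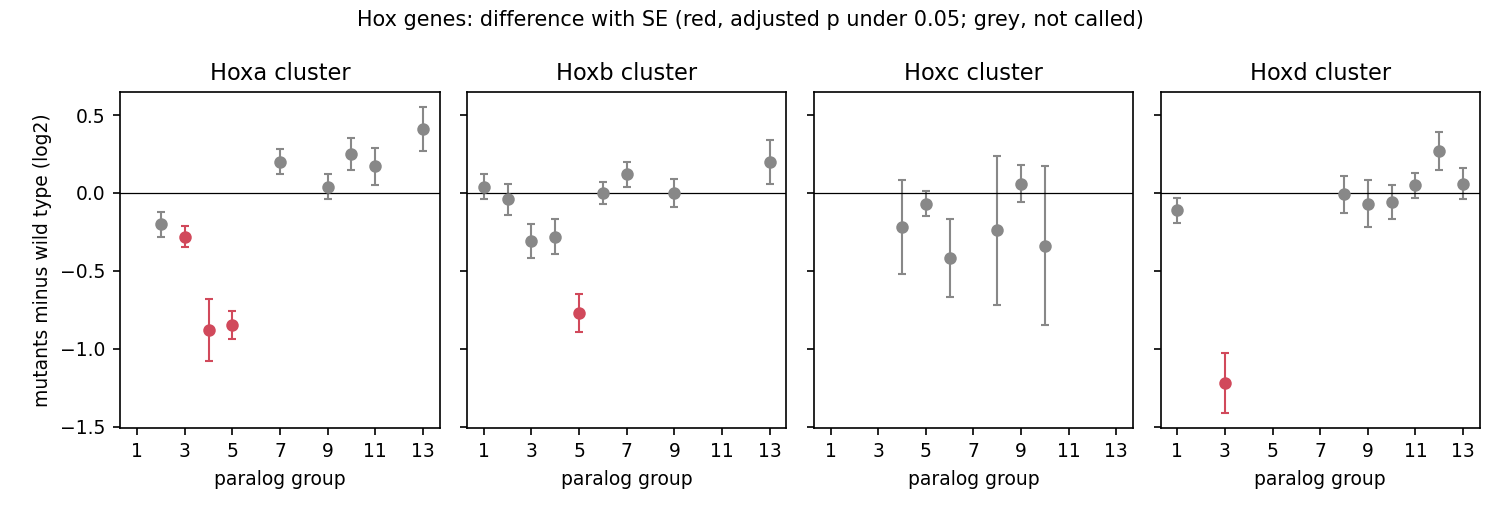
Pooled mutant minus wild type difference (log2, vertical axis, bars are SE) of 32 Hox genes by paralog group (horizontal axis), in a panel for each cluster, with called genes in red. The 5 called genes all lie below 0 in paralog groups 3 to 5, and none of the genes of groups 6 to 13 is called.

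Among the 12 largest falls, Ret, Cdh19, Sox10 and Itga4 were neural and the others were on no neural list. Csn3, the gene of the milk protein kappa casein, was at 8.13, 9.88 and 9.41 in wild type and at 4.95 to 5.65 in the mutants, with a median of 5.24. Wild type arrays showed a clear signal and mutant arrays one near the dim end, a 14.8-fold difference (-3.89, SE 0.28, adjusted p = 3.54e-05), while a second probe set differed by -0.26. Pou3f3, a POU-domain factor of neural and kidney development, was at 7.02, 8.11 and 7.72 against 4.94 to 5.88 (4.71-fold lower, adjusted p = 0.000145), but its second probe set differed by 0.02. Ang, the ribonuclease angiogenin, was at 8.04, 8.20 and 8.62 against 5.82 to 6.16 (4.78-fold lower, adjusted p = 3.40e-06). Its other probe sets differed by -2.27 without overlap and by -0.14 with overlap. The brightest and the one at -2.27 are both of a kind that can match several transcripts. Pianp, a neural membrane protein, was 4.37-fold lower (adjusted p = 3.03e-06, other probe set -0.18), Rpgrip1, a protein of the photoreceptor cilium, 3.69-fold lower (adjusted p = 5.90e-06, other probe sets 0.02, 0.07 and 0.13), and Zfp979, a zinc finger gene, 4.50-fold lower (adjusted p = 3.40e-06). Mutant values of Zfp979 were 3.55 to 4.06, at the dim end of the arrays, where background limits the fold. For Pianp and Rpgrip1 the large change thus rests on a single probe set.

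Read from the brightest probe set of each gene, Itga9 had the largest rise. This integrin alpha subunit, a receptor for tenascin C and other matrix proteins, was at 7.84, 7.88 and 8.20 in wild type and at 9.90 to 10.10 in the mutants, with a median of 9.97. The 6 mutant arrays were nearly equal and lay at least 1.70 above the highest wild type array (difference 2.02, SE 0.09, 4.04-fold, adjusted p = 1.09e-06). Ednrb null rose by 1.95 and Ednrb NCC null by 2.08. Its dimmer probe sets differed by -0.01 and 0.20, so the 3 readouts of Itga9 were unlike. Itgb1, the beta subunit that pairs with Itga9 and Itga4, differed by 0.23 (adjusted p = 0.197). Of 25 laminin and integrin genes Itga9 was the 1 called higher, and Itga4 and Lama4, a laminin chain of vessels and muscle at -0.48 (adjusted p = 0.0394), were the 2 called lower. The call of Lama4 was lost in 10 of 19 alternatives, among them those without wild type 1B (adjusted p = 0.186) and 1D (0.111). A dimmer probe set of the laminin gene Lamb1 differed by 2.68 without overlap, and its further dimmer ones by -0.09 and -0.18 with overlap.

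Other large rises were spread over genes of different functions. Apoa1, the main apolipoprotein of high-density lipoprotein, was at 6.24, 6.56 and 6.72 in wild type and at 7.39 to 7.94 in the mutants (2.27-fold higher, adjusted p = 0.000351). Its other probe sets differed by 1.27, 1.33 and 1.17, all without overlap, so all 4 readouts moved alike. The brightest and those at 1.33 and 1.17 are of a kind that can cross-hybridise. Clic5, an intracellular chloride channel protein, was at 5.32, 5.65 and 5.81 against 6.34 to 7.26 (2.48-fold higher, adjusted p = 0.000161), and other probe sets differed by 1.16 without overlap and by 0.31 and 0.13 with overlap. Klk13, a kallikrein protease, rose 2.98-fold (adjusted p = 0.000154), and Fn3krp, a kinase that acts on glycated proteins, by 1.58 on the log2 scale (adjusted p = 5.61e-05). Zfp42, known as a marker of pluripotent cells, was at 5.36, 5.45 and 5.37 against 6.12 to 7.32 (2.41-fold higher, adjusted p = 0.00339). The unnamed clone A330076H08Rik rose 3.58-fold (adjusted p = 2.35e-06) and the noncoding transcript Smc2os 2.32-fold (adjusted p = 0.000262); the latter runs antisense to Smc2. Slc25a31, a mitochondrial carrier of germ cells, rose 2.49-fold from a dim wild type level (3.93 to 3.99). Ildr2, an immunoglobulin-like receptor gene, differed by 1.13 (adjusted p = 0.0303), a call lost in 9 of 19 alternatives, with wild type 1B lowest at 5.86.

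**Figure D4:**
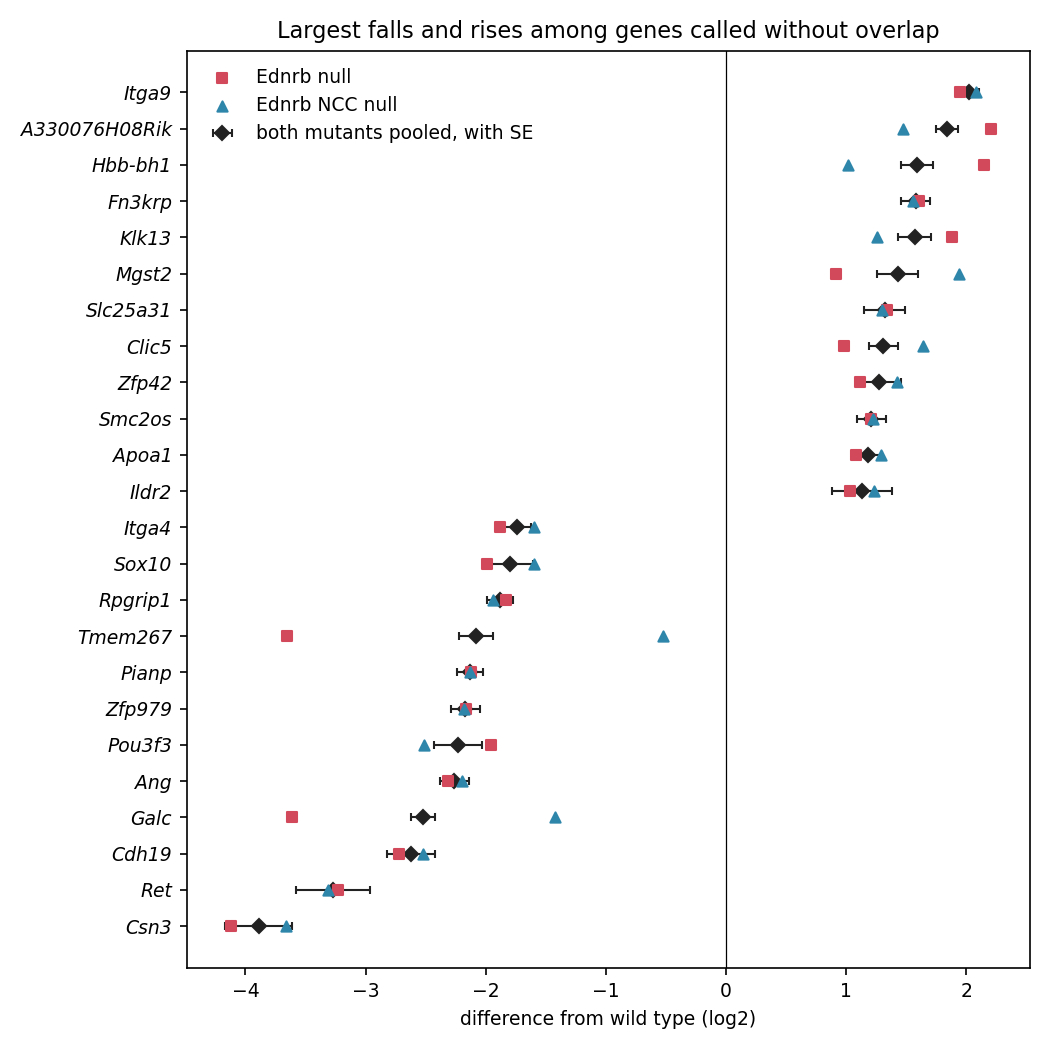
Difference from wild type (log2, horizontal axis) of the 12 largest rises and 12 largest falls among genes called without overlap, for Ednrb null (squares), Ednrb NCC null (triangles) and both pooled (diamonds, bars are SE). The pooled values run from -3.89 for Csn3 to 2.02 for Itga9, and the mutants part most for Tmem267 and Galc. Both mutants were set against the same 3 wild type arrays.

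Blood, vessel and epithelial genes contributed single rises. The embryonic globin gene Hbb-bh1 was at 7.89, 8.55 and 8.11 in wild type and at 9.20 to 10.49 in the mutants (3.01-fold higher, adjusted p = 6.07e-05), with 1.51 and 1.60 for further probe sets. It was the only 1 of 12 red blood cell genes to be called (8.33%, beside 2.90% of all genes called higher). The mean level of that list was nevertheless 7.69 to 7.73 in wild type and 7.84 to 8.08 in the mutants, without overlap. Globin genes resemble one another, and how far these probes tell them apart was not tested. Lyve1, a receptor of lymphatic endothelium and some macrophages, was at 4.88, 5.68 and 5.42 against 5.90 to 6.83 (2.12-fold higher, adjusted p = 0.00279), and Pf4, a chemokine of platelets and macrophages, differed by 0.68 with overlap (adjusted p = 0.00839). Of 38 epithelial genes 3 were called higher, Mgst2, Lypd8 and Lgals4 (7.89%, beside 2.90% of all genes), and 8 were higher at an unadjusted p under 0.05. Without wild type 1B 1 was called and in the 2-group fit none, and Lgals4, a galectin, lost its call in 10 of 19 alternatives. Mgst2, a microsomal glutathione transferase, was at 6.54, 6.94 and 7.44 against 7.75 to 9.07 (2.69-fold higher, adjusted p = 0.00120). Lypd8, a secreted protein of colon epithelium, was at 6.94, 7.15 and 8.01 in wild type, at 7.36 to 7.94 in Ednrb null and at 9.48 to 10.27 in Ednrb NCC null, so its pooled call (adjusted p = 0.00836) came with overlap and from the latter mutant. The epithelial list's mean level was 8.92 to 9.17 in wild type, 8.67 to 8.99 in Ednrb null and 9.46 to 9.73 in Ednrb NCC null. The part of epithelial content in these rises was not tested.

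Genes of the muscle coat and its pacemaker cells gave single calls, all of them higher. Of 23 smooth muscle genes 2 were called higher (8.70%, beside 2.90% of all genes), and the list median was -0.00. They were Ldb3 at 0.39 (adjusted p = 0.0492) and Kcnmb1 at 0.40 (adjusted p = 0.0360), both with overlap. Those 2 calls were lost in 13 and 11 of 18 alternatives. Of 8 genes of the interstitial cells of Cajal, the pacemakers of the gut, 1 was called (12.5%). It was Thbs4, which rose by 0.68 (adjusted p = 0.0164). The receptor Kit, which defines these cells, was at 11.09 ± 0.28 in wild type (SD, n = 3) and at 11.35 to 11.91 in the mutants (difference 0.50, adjusted p = 0.0648), and the channel Ano1 differed by 0.25. Their list median was 0.21. Thbs4, a matrix thrombospondin, was not called without wild type 1B (adjusted p = 0.0608) or with the Actb covariate (0.110).

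Of 32 fibroblast matrix genes Col12a1 alone was called (3.12%, beside 4.70% of all genes called and 1.80% called lower), but without wild type 1C 12 were called lower. This collagen of dense connective tissue was at 10.20, 10.07 and 9.93 in wild type and at 8.61 to 9.35 in the mutants, with a median of 8.85. All mutant arrays stood below wild type (difference -1.16, SE 0.11, 2.23-fold lower, adjusted p = 0.000244), and other probe sets differed by -0.53 without overlap and by -0.14 and -0.07 with overlap. The matrix list had a median of -0.24 and 9 members lower at an unadjusted p under 0.05, with 0 called higher by limma (0 at an unadjusted p under 0.05). Its mean level ranged from 11.30 to 11.73 in wild type and from 11.24 to 11.56 in the mutants.

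Notch signalling, which keeps enteric progenitors undifferentiated, held 3 called falls among 19 genes (15.8%, beside 1.80% of all genes) and a median of -0.20. The receptor Notch1 was at 10.39, 10.38 and 10.44 in wild type and at 9.83 to 10.14 in the mutants, with a median of 9.92. The wild type values were nearly equal and the mutants all lower (difference -0.45, SE 0.07, adjusted p = 0.00503), and another probe set differed by -0.23. Its ligand Dll1 was at 8.50, 8.57 and 8.53 against 7.80 to 8.19 (difference -0.49, adjusted p = 0.00974). Dll3, a divergent ligand, was called at -0.91 (adjusted p = 0.0419) with overlap, and its fall lay in Ednrb null, at -1.73 against -0.09. That call was lost in 11 of 19 alternatives, among them those without wild type 1B (adjusted p = 0.213) and in the 2-group fit (0.416). Hes1, the main target gene, was lower in all 6 mutants, at -0.21, without being called (adjusted p = 0.106). Limma called 0 of the Notch genes higher (0 at an unadjusted p under 0.05).

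Other signalling families gave few calls. Among 28 Wnt genes 1 was lower, the enhancer Rspo2 at -0.83 (adjusted p = 0.00339, overlapping), and among 22 BMP and activin genes 1, Id4, at -0.55 (adjusted p = 0.0294, overlapping). Of 17 genes of FGF and ERK feedback the phosphatase Dusp4 was lower at -0.42 (adjusted p = 0.0311, overlapping). The shares called in these lists were 3.57%, 4.55% and 5.88%, beside 4.70% of all genes called and 1.80% called lower. The calls of Id4 and Dusp4 were lost in 7 and 9 of 19 alternatives. Limma called 0 of 15 Hedgehog genes, 0 of 18 retinoic acid genes, 0 of 25 axon guidance genes and 0 of 25 cell cycle genes. At an unadjusted p under 0.05 these 4 lists held 1, 1, 3 and 3 higher and 3, 2, 5 and 0 lower members. Among 21 immediate early and heat shock genes, which can respond to handling, 14.3% were called, beside 4.70% of all genes. Atf3 rose by 0.47 (adjusted p = 0.0194) while Jun and Egr1 fell by 0.53 (adjusted p = 0.0349) and 0.51 (adjusted p = 0.0208). Each of these 3 lost its call in at least 3 alternatives, the Actb covariate among them. A second probe set of Jun differed by -0.96 without overlap.

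For 79 of the 668 genes (11.8%, beside 6.52% of all genes called between the mutants), the size of the change differed between the mutants. For 589 it was not called different. With the Actb 3' to 5' difference as a covariate, 15 genes called without overlap differed between the mutants. That difference was 0.90, 0.80 and 0.90 in Ednrb null and 1.40, 1.03 and 1.21 in Ednrb NCC null, without overlap. The part of RNA integrity in the unequal sizes was not tested further. The pooled call does not ask for a call in each mutant. In limma Htra3 differed by only -0.09 in Ednrb NCC null (adjusted p = 0.567), and Maob by 0.17 in Ednrb null (adjusted p = 0.404). How many of the 668 were called in each mutant was not counted. Against the shared wild type arrays, Ednrb null alone gave calls for 5.04% of genes and Ednrb NCC null alone for 4.96%. Of the 43 genes among the 79 that were higher, 26 had the larger change in Ednrb null. Of the 36 that were lower, 28 did. Galc, a lysosomal enzyme that breaks down galactosylceramide, was at 8.84, 8.84 and 9.00 in wild type, at 5.32, 5.49 and 5.04 in Ednrb null and at 7.57, 7.40 and 7.45 in Ednrb NCC null. The arrays fell into 3 separate steps, with drops of 3.61 and 1.42 (pooled adjusted p = 5.92e-07, between the mutants 2.87e-06). Its other probe sets differed by 0.08 and 0.02. Tmem267, a transmembrane protein gene, was at 8.38, 8.29 and 8.24 in wild type, at 4.98, 4.25 and 4.74 in Ednrb null and at 7.99, 7.75 and 7.63 in Ednrb NCC null. Here the fall lay almost wholly in Ednrb null, at -3.65 against -0.52 (between the mutants adjusted p = 2.87e-06).

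Rsad1, of the radical SAM enzymes, differed by -1.27 in Ednrb null and by -0.24 in Ednrb NCC null (between the mutants adjusted p = 4.92e-05), and Htra3 by -0.79 and -0.09 (adjusted p = 0.000690). The tRNA deaminase gene Adat2 differed by 1.65 and 0.56 (adjusted p = 0.000332). In the pooled mutants other probe sets of Rsad1 differed by -0.04 and 0.03 and those of Htra3 by 0.02 and -0.17. For Rsad1 and Htra3 the change thus rests on a single probe set. Hbb-bh1 rose more in Ednrb null, at 2.15 against 1.02 (adjusted p = 0.00184), and Mgst2 and Clic5 more in Ednrb NCC null, at 1.94 against 0.92 (adjusted p = 0.0133) and 1.64 against 0.98 (adjusted p = 0.0174). Among genes with 1 mutant array inside or beyond the wild type values, the sulfatase gene Arsk, the corticotropin-releasing hormone gene Crh and the dim gene Spata5l1 differed by -1.90, -3.64 and -1.11 in Ednrb null and by 0.02, -0.84 and -0.23 in Ednrb NCC null. For Mgst3, a second glutathione transferase, the values were 0.31 and 1.07. The other probe sets of Arsk and Mgst3 differed by -0.09 and 0.03 in the pooled mutants, with overlap. With the 6 mutant arrays as 1 group, differences between the mutants count as spread. In that fit 195 genes were called higher and 134 lower, and Adat2, Galc (adjusted p = 0.0610), Htra3, Rsad1 and Tmem267 were not among them.

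**Figure D5:**
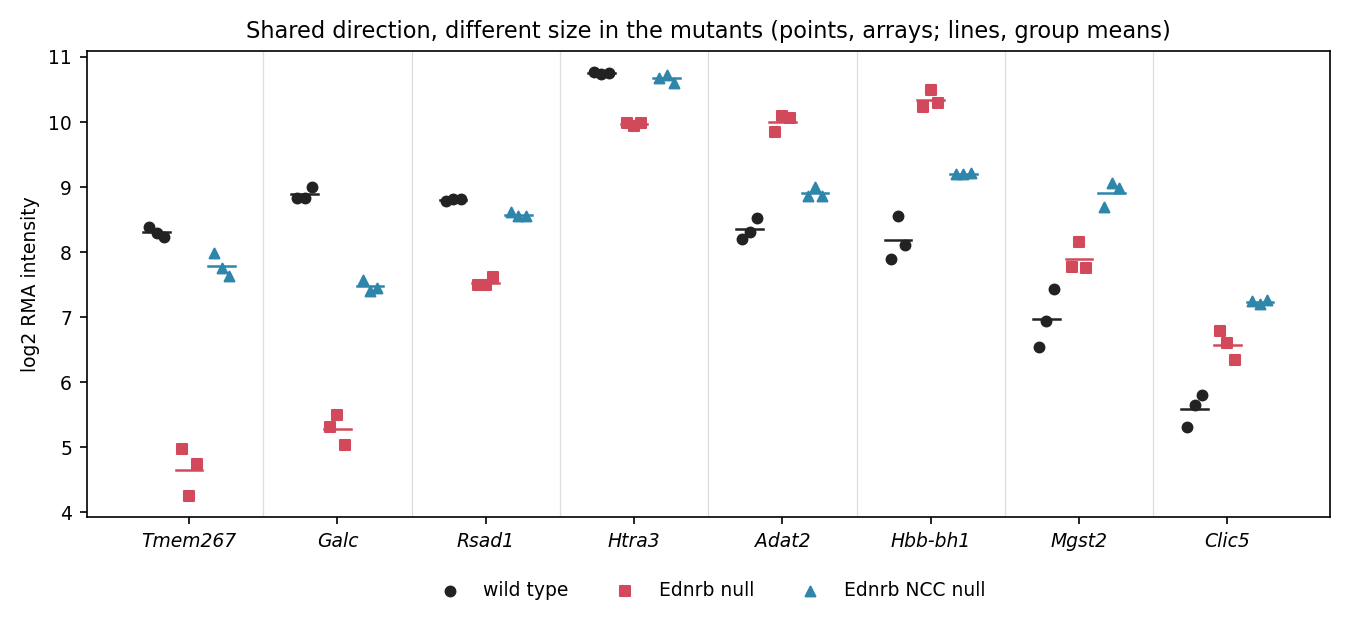
Log2 RMA intensity (vertical axis) of 8 genes called without overlap in the pooled comparison whose difference from wild type was unequal in the mutants, in wild type (circles), Ednrb null (squares) and Ednrb NCC null (triangles) arrays, with a line at each group mean. Tmem267 lies at -3.65 from wild type in Ednrb null and at -0.52 in Ednrb NCC null, where Tmem267, Rsad1 and Htra3 were not called, and Clic5 at 0.98 and 1.64.

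A second probe set gave a readout of the same gene that had not been used to choose it. Of the 668 genes 366 had at least 1 more probe set, and for 139 of these (38.0%) another one also lay on the same side without overlap, beside 8.97% of all genes with several probe sets. An opposite one was found for 18 genes (4.92%, beside 3.11%). The share was 41.7% among higher and 32.4% among lower genes. The genes were not spread evenly over signal strength. With all genes cut into 3 equal parts by mean signal, 67 of the higher and 55 of the lower ones came from the dimmest part, 201 and 135 from the middle part, and 156 and 54 from the brightest. Of 641 genes on the chromosome of Ednrb 5.15% were called without overlap, beside 3.67% of all genes. Among the 25 measured genes on each side of it, 2 of 50 were called without overlap, close to the share over all genes. Bora, a cofactor of mitotic kinases, was higher by 0.87 (adjusted p = 0.000124) and Tgds, a sugar nucleotide dehydratase, differed by -0.67 (adjusted p = 0.0102), both without overlap. Slitrk1, a neuronal membrane protein, and Gpr180 were called at -0.81 (adjusted p = 0.0276) and -0.31 (adjusted p = 0.0446) with overlap.

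RNA integrity and sex were looked at across the arrays. The log2 3' to 5' difference of the Actb controls was 1.32, 1.08 and 1.14 in wild type, 0.90, 0.80 and 0.90 in Ednrb null and 1.40, 1.03 and 1.21 in Ednrb NCC null. Pooled, the mutants differed from wild type by -0.14 (exact permutation test, 2-sided, p = 0.345, smallest possible 0.0238), and Gapdh by -0.02 (exact p = 0.810). For Actb this pools unlike groups. Every Ednrb null array lay below every wild type array, while Ednrb NCC null spanned the wild type values. With the Actb difference as a covariate 272 of the 668 genes kept their call (140 higher, 132 lower). The sex-linked list was most uneven among the Ednrb NCC null arrays, with mean levels of 6.31, 9.91 and 7.81 for 2, 5 and 6. Its mean ran from 9.24 to 9.93 across Ednrb null arrays and from 8.71 to 9.28 across wild type. The list holds Xist, a female marker, besides Y-linked genes, so its mean does not measure sex. Further probe sets of Xist differed by 1.22 and 1.25 in the pooled mutants, both with overlap. The Y-linked gene Eif2s3y was at 4.01 for array 2 and 6.16 for array 6, and at 8.18 or above on every other array. Uty ran from 3.32 to 8.51 in the mutants and from 6.83 to 8.45 in wild type. Y-linked signal was thus unequal between the genotypes. The part of these genes in the other differences was checked with a Y-linked covariate added after the data were seen. It left 411 higher and 303 lower calls.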

How the data were processed

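Each of the 9 Affymetrix MOE430 version 2 arrays held hindgut RNA, with 3 arrays per genotype. Per array and probe set the authors deposited 1 intensity, computed with RMA per the submitters' processing notes, on a linear scale from 5.69 to 61637; the version of RMA is not given in the sources used here. They were converted to log2 without a pseudocount and not normalized further. RMA shrinks differences of dim probe sets, no detection calls come with the values, and the number of arrays limits the precision. Array medians lay between 112 and 116, and arrays correlated across genes at r of 0.9938 to 0.9971 within groups and 0.9896 to 0.9944 between them.

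Of 45101 probe sets 34945 named 1 gene in the platform's gene table, 932 several, and 9160 were not in it; 64 were controls. The brightest probe set per gene gave 18193 genes, of which 18032 matched by Entrez ID to a RefSeq table of GRCm38.p6, used for names and neighbours. Group means were fitted with limma 3.58.1 (lmFit, eBayes) in R 4.3.3 over all 9 arrays, and the contrast was the mean of both mutants minus wild type. Tests were 2-sided with Benjamini-Hochberg adjustment, and an adjusted p under 0.05 was called. The fit was tested on simulated data.

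The comparison and the gene lists were chosen with earlier results of these data known. The text names Ednrb, the 12 largest rises and falls among genes called without overlap, up to 3 such members of each list by smallest p, 5 that differ most between the mutants, 5 with 1 mutant array inside wild type, and all members of the endothelin, GDNF and crest lists; unnamed clones were left out unless among the first 3. Other names in the text, among them the called list members with overlap, Hox genes, list members that were not called, and neighbours of Ednrb, were added after their values were seen. Alternatives were a 2-group fit, median centring, quantile normalization, a filter on the dimmest 40% of genes, the mean of or every probe set, eBayes with trend and robust, array weights, an Actb covariate, each mutant alone, each array left out, an adjusted p under 0.10, a minimum of 2-fold, and, added after seeing the data, a Y-linked covariate.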

Additional observations from a re-analysis of the deposited data

Results flagged for a closer look

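Among the mutant arrays, 94 genes were examined for a single outlying array, and 2 were marked because the gap to the nearest array exceeded Dixon's critical value for 6 samples; chance marks about 1 in 20 groups. Artn was at 7.85 in Ednrb NCC null 2, with the next array at 7.40. Tfap2b was at 4.62 in Ednrb NCC null 5, with the next at 4.50.

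For 24 called genes named in the text or called within a list, the difference between the mutants was itself called (limma, adjusted over all genes). All were read from the brightest probe set of each gene. Given as Ednrb null minus Ednrb NCC null on the log2 scale, the neural and signalling genes were Ednrb at -2.04, Dll3 at -1.64, Rspo2 at -1.04, Dusp4 at -0.58, Maob at -0.82 and Crh at -2.80. Epithelial and metabolic genes were Lypd8 at -2.42, Mgst2 at -1.02, Mgst3 at -0.76, Galc at -2.19, Arsk at -1.92, Rsad1 at -1.03, Adat2 at 1.10 and Egln3, an oxygen sensor of the hypoxia response, at -0.59. Blood and matrix genes were Hbb-bh1 at 1.13, Pf4 at -0.81, Hapln1, a link protein of cartilage, at 0.68, Htra3 at -0.70 and Klk13 at 0.62. The others were Tmem267 at -3.13, A330076H08Rik at 0.75, Clic5 at -0.66, Mdfi at -0.84 and Spata5l1 at -0.89.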

How the results depend on the processing

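No paired analysis was possible because the groups share no replicate numbers. Of the 76 called genes checked, 32 kept their call in every alternative run for them and 44 lost it in at least 1, none with a turned sign. Of the losses, 37 genes were in the 2-group fit and 23 with the Actb covariate. Genes called higher and lower numbered 195 and 134 in the 2-group fit, 165 and 168 with the Actb covariate, 954 and 493 at an adjusted p under 0.10, 31 and 52 at 2-fold or more, and 989 and 968 with every probe set tested. Called without overlap were 195 and 133, 140 and 135, 24 and 42 (2-fold), and 815 and 759 (every probe set). Genes without overlap alone were 2085 and 1395 with every probe set. Of genes called without overlap, those that differed between the mutants numbered 15 with the Actb covariate, 42 with the Y-linked covariate, 132 with array weights, 14 at 2-fold and 192 with every probe set. With 1 array left out, 167 to 603 genes were called higher and 197 to 423 lower, 154 to 566 and 179 to 379 without overlap, 1092 to 2611 and 490 to 1039 did not overlap, and 35 to 134 differed between the mutants. Besides wild type 1B, the called higher count moved by over 1.5 times without Ednrb null 37 (326), Ednrb NCC null 5 (341) and Ednrb NCC null 6 (291). The lower count without overlap did so without wild type 1C (379), and the count differing between the mutants without wild type 1C (133) and 1D (134), Ednrb null 29 (35) and 41 (45), and Ednrb NCC null 5 (43) and 6 (41). The cause was not tested; with every probe set more features are tested, and without an array a gene needs fewer values to stay clear of overlap. The median of the crest list was -0.57 with the mean of all probe sets and -0.50 with every probe set. Signal over background limits the genes near the dim end.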

Other observations

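Mesothelial genes were higher in the mutants without a call. Of 13 measured, 6 were higher and 0 lower at an unadjusted p under 0.05, and limma called 0 after adjustment, with a median of 0.38. Without wild type 1C 5 were called higher, without 1B 2, and without 1D or Ednrb null 41 1 each. The mean level of the list was 7.84, 8.77 and 8.75 in wild type and 8.84 to 9.23 in the mutants. Upk3b, a uroplakin of the gut surface, differed by 1.94 (adjusted p = 0.109) and Muc16, a membrane mucin, by 1.51 (adjusted p = 0.0790), both without overlap. For Muc16 wild type 1B was at 5.03, with 7.65 and 7.27 in 1C and 1D and 7.81 to 8.60 in the mutants. Bnc1 and Wt1, transcription factors of mesothelium, were likewise lowest in wild type 1B, at 6.71 and 7.12.

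Probe sets that name several genes or none gave the opposite balance. Of 10092 such probe sets 136 were called higher without overlap (1.35%) and 247 lower (2.45%), beside 2.33% and 1.34% of genes. Among 18 genes of hypoxia and glycolysis 1 was called, Egln3, higher by 0.52 (adjusted p = 0.00746) with overlap. Of 15 cartilage genes Hapln1 alone was called (6.67%), at 0.69 (adjusted p = 0.0164), with 1.03 in Ednrb null, beside 0.35 in Ednrb NCC null. Skeletal muscle (24 genes), enteroendocrine (15) and urothelial and genital genes (12) held 0 calls in limma, with 1, 1 and 1 higher and 1, 0 and 0 lower at an unadjusted p under 0.05.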
